A study of Mus musculus with 9 samples.

Results

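The Il7r interval is a stretch of 180 kb on mouse chromosome 15, beginning at position 9400001 of the mm8 build, that was picked from the Stat5 peaks and reads of the present libraries and carries the name of Il7r. The deposited peaks of 6 lists, joined where they overlapped by at least 1 bp, gave 43771 merged regions over the genome, and 33 of these touch the interval. Mouse CD4+ T cells were immunoprecipitated with antibodies to Stat5a, to Stat5b, or with control IgG. Cells were taken 8 h or 13 h into differentiation toward Th2, the helper cells that make IL-4, or once 2 rounds of it were complete. Each antibody and stage has 1 library, so 9 libraries enter, with 3 of them controls. The sources used here give neither strain, age nor culture conditions, nor whether the 3 libraries of a stage share a culture. With no replicates, each comparison below sets 1 library against another and says nothing of the spread between cultures. No expression was measured, so the labelled cell type could not be checked against marker genes.

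Il7r encodes the alpha chain of the receptor for interleukin-7, which pairs with the common gamma chain, the product of Il2rg. Binding of IL-7 activates the kinases Jak1 and Jak3, which phosphorylate Stat5a and Stat5b, and the phosphorylated dimers enter the nucleus and bind DNA at palindromic TTC and GAA half-sites. Naive and memory T cells depend on this receptor for survival, and activated T cells lose much of it from their surface. In the order of genes of the GRCm38.p6 assembly, Il7r has Ugt3a2 and Capsl on one side and Spef2 and Prlr, the prolactin receptor gene, on the other. Gene positions in mm8 were not used here, so the place of Il7r, its exons and its start relative to the regions below was not determined. Regions are therefore named by the distance of their middle from the left end of the interval, as +8 kb or +107 kb.

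The promoter is shown because it is the one stretch of regulatory sequence of Il7r that can be read without a genome of the build of the files. The 250 bases before the start of Il7r, from RefSeq on GRCm38.p6 (minus strand, chr15:9529877-9530126), run 5′ to 3′ as follows, with the match to the Stat5 half-site palindrome TTCNNNGAA in capitals.
Il7r: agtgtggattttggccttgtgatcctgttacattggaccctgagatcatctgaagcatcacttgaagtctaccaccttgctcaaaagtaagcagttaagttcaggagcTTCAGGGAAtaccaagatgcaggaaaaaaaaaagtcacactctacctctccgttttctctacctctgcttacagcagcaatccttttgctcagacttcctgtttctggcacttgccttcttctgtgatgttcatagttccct
The motif reads the same on both strands and was found once, as TTCAGGGAA, at bases 142 to 134 before the start. In the same window it occurred in 2306 of 32851 mouse promoters, which is 7.02%. These coordinates belong to another build than the peaks and cannot be set against them, and a match in letters is not a bound site.

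Mapped reads ranged from 3130228 (Stat5a at 8 h) to 9036070 (Stat5b at 13 h), and between 61.0% and 74.1% of a library were distinct by start and strand. Levels are in RPM, reads with their 5′ end in a region per 1000000 mapped reads. Levels carry exact Poisson intervals and ratios exact conditional intervals, both at 95%. A ratio was called higher when its interval lay wholly above 2, and lower when it lay wholly below 0.5. These intervals cover counting error only, because each group has 1 library. Reads carry no molecular identifier and may be copies of one molecule, so the intervals on all reads may be too narrow. Each result was recomputed with every start and strand counted once, here called distinct starts.

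Stat5 peaks were dense across the interval, and the widest gaps between neighbouring regions were 34052 bp from +18 to +52 kb and 13251 bp from +80 to +94 kb. The 33 regions cover 26.8 kb, or 14.9% of the interval, where 180 kb of genome held on average 3.15 merged regions. The Stat5a lists had 16, 19 and 18 peaks in the interval, in the order of the stages, and the Stat5b lists had 12, 23 and 27. Over the genome the Stat5a lists held 5585, 14302 and 9791 peaks and the Stat5b lists 3990, 13268 and 33692. The Stat5b lists thus grew with each stage in both, but by a much smaller factor in the interval, above all from 13 h to 2 rounds. Of the 33 regions, 21 had a peak in at least 2 lists (63.6%, against 36.7% of all merged regions). The 5 regions at +8, +73, +74, +101 and +107 kb had a peak in all 6 lists (15.2%, against 2.63%). By stage, 10 regions had a peak at all 3 stages (30.3%, against 8.59%), and 8 only after 2 rounds (24.2%, against 48.0%). Regions with peaks of both antibodies numbered 6 of 15 at 8 h (over the genome 25.7% of regions with a peak of either), 13 of 21 at 13 h (26.3%) and 13 of 25 after 2 rounds (23.7%). Because the interval was picked from such data, these shares describe it and test nothing.

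**Figure D1:**
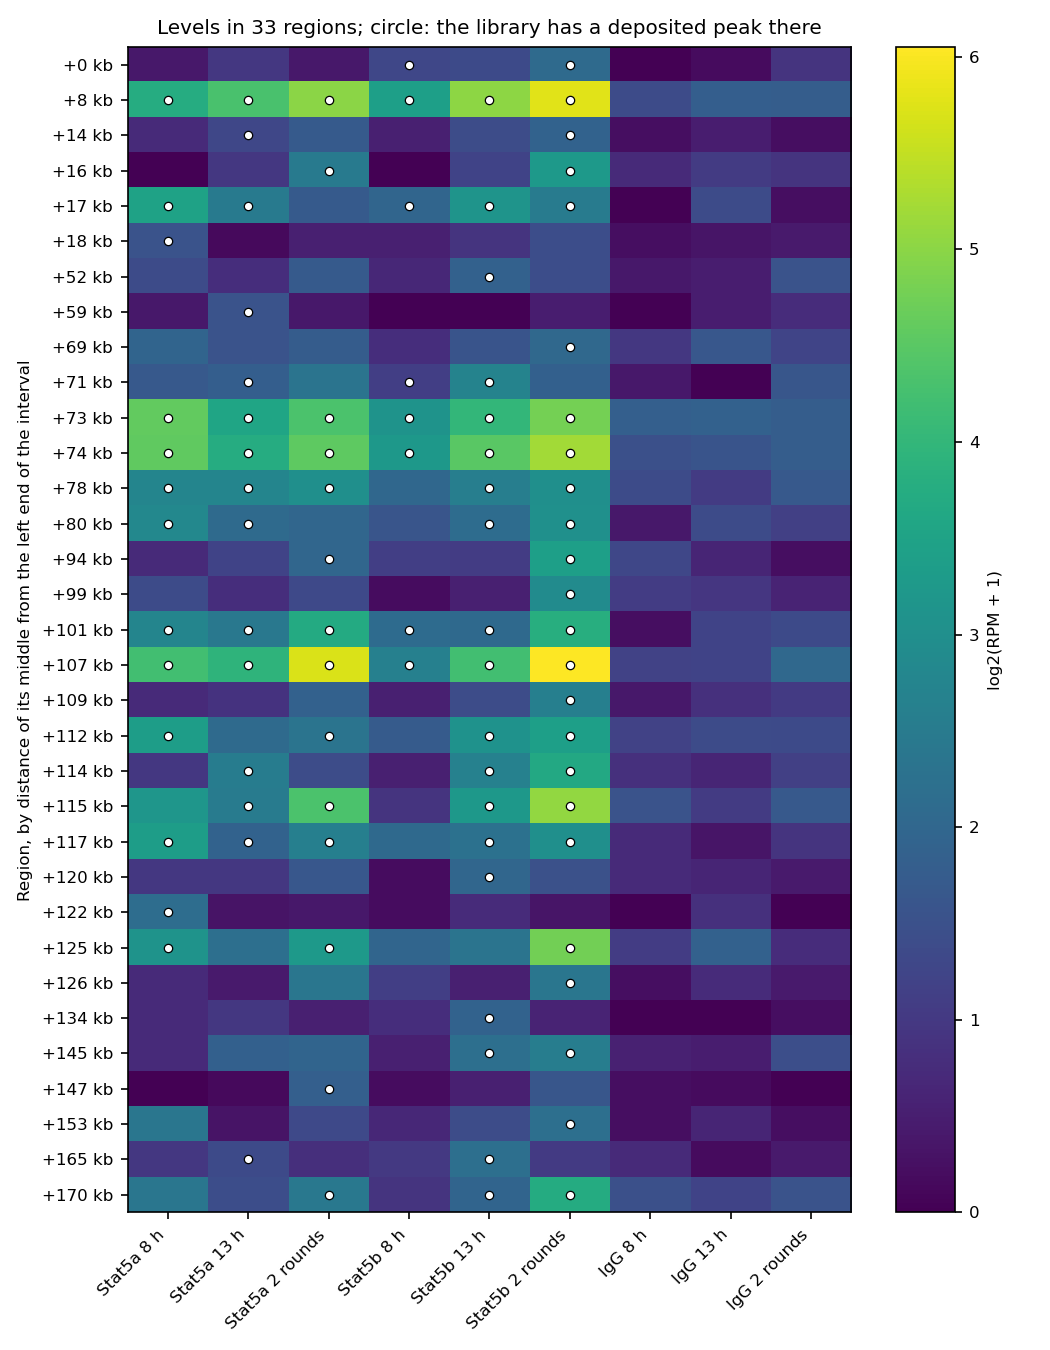
Levels of the 33 regions (rows, by distance of the middle from the left end of the interval) in the 9 libraries (columns), coloured by log2(RPM + 1), where a circle marks a deposited peak of that library in that region. The rows at +8, +73, +74, +101 and +107 kb have circles in all 6 ChIP columns, and the IgG columns stay dark throughout.

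The interval ends in sparse ground on the left and short of a further strong region on the right. The leftmost region inside, +0 kb (chr15:9399963-9400483), reached at most 3.27 RPM (Stat5b after 2 rounds), and the next merged region to its left lay 332 kb away. The rightmost inside, +170 kb, lay 21.4 kb from the first region outside, at +192 kb (chr15:9591502-9592669), which had a peak in all 6 lists. That outside region held 12.46, 11.31 and 33.56 RPM of Stat5a at 8 h, 13 h and 2 rounds, and 3.20, 19.26 and 38.27 RPM of Stat5b. By the mean of both antibodies above IgG, only +8 and +107 kb inside ranked above it after 2 rounds. The window thus cuts off a region stronger than most of those inside.

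Summed over the 180 kb, Stat5a reads amounted to 280 RPM at 8 h, 226 at 13 h and 394 after 2 rounds. Stat5b reads amounted to 143, 281 and 530 RPM, and IgG reads to 94.5, 126 and 164 RPM. Both antibodies were thus above IgG at each stage, by ratios from 1.51 (interval 1.36 to 1.67, Stat5b at 8 h) to 3.23 (3.01 to 3.47, Stat5b after 2 rounds). Inside the 33 regions the ratio to IgG was 6.84, 3.65 and 6.19 for Stat5a and 2.60, 5.43 and 10.1 for Stat5b. In the rest of the interval it was 1.61, 1.18 and 1.29 for Stat5a and 1.13, 1.17 and 1.21 for Stat5b. The excess lay mainly in the regions, but these were built from peaks of the same libraries, so the split describes the interval and tests nothing.

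The IgG background of the interval was above that of most of the genome and differed between stages. IgG reads of the interval were 1.34, 1.77 and 2.44 times the median tile of 180 kb at 8 h, 13 h and 2 rounds. Of all tiles, 2.06%, 0.273% and 0.137% held as many or more. IgG after 2 rounds stood at 1.74 times IgG at 8 h (1.57 to 1.93), and outside the regions at 1.82 times (1.61 to 2.05). The median over 13900 tiles of 180 kb was 0.984, and 0.0791% of them were at or above the value of the interval. Outside the regions Stat5a after 2 rounds stood at 1.46 times its 8 h value (1.29 to 1.65) and Stat5b at 1.94 times (1.75 to 2.15). The part of this background in the changes between stages below was not tested.

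**Figure D2:**
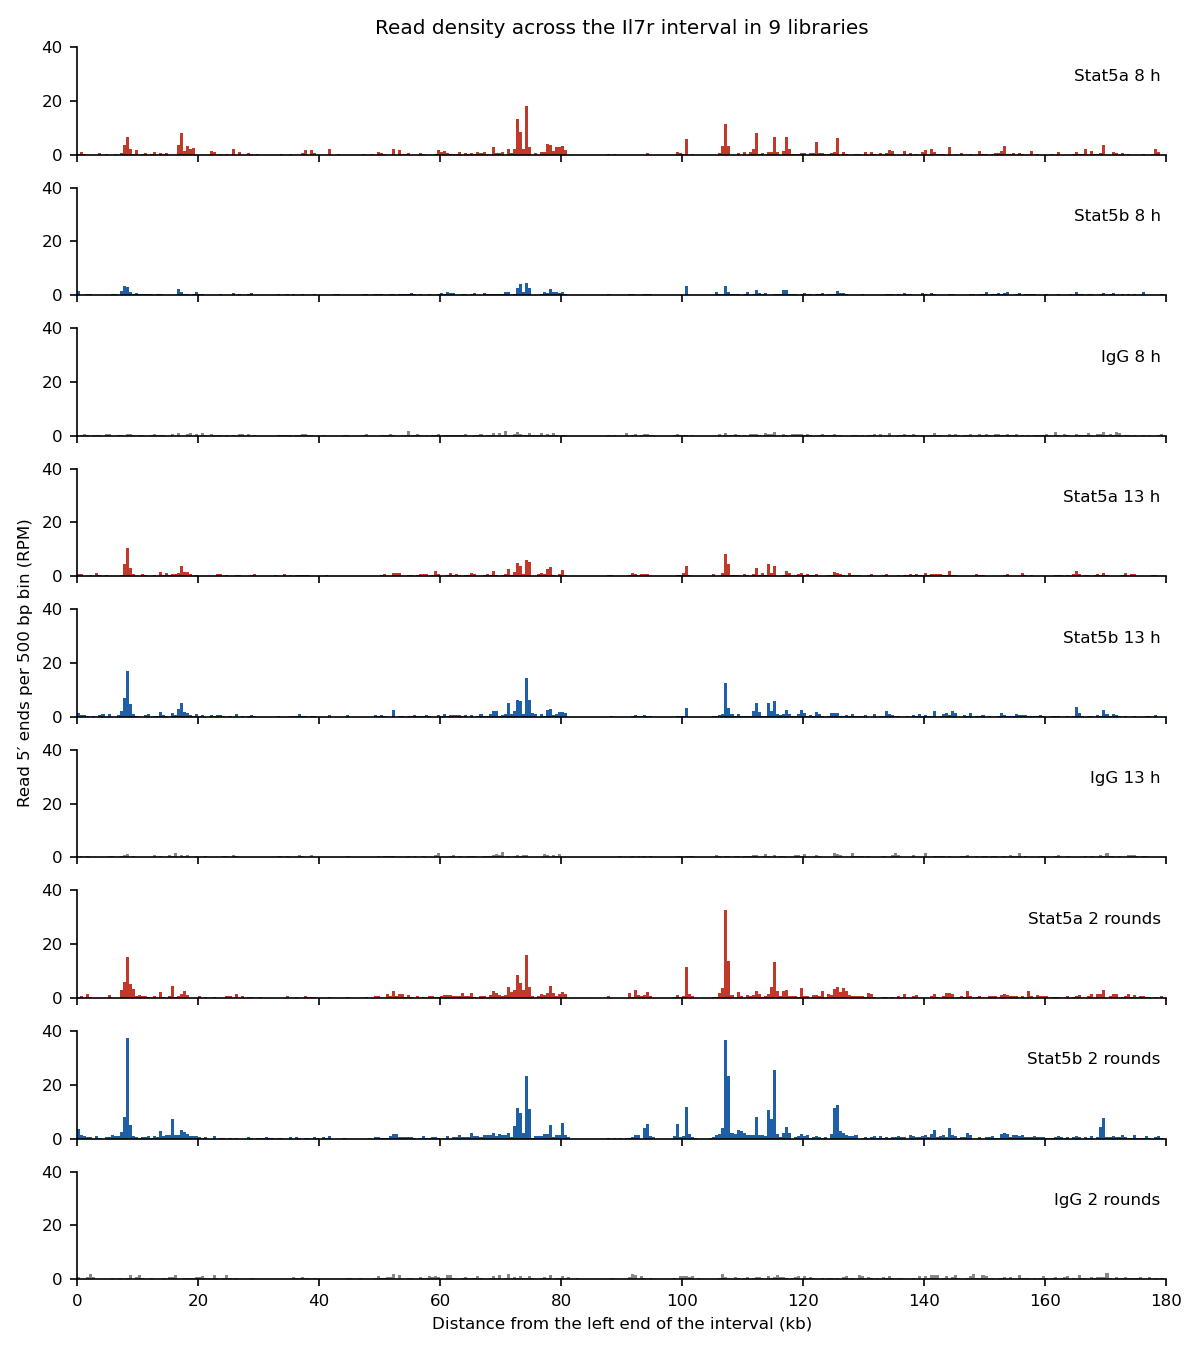
Read 5′ ends per 500 bp bin (RPM) along the interval (distance from its left end in kb) in each of the 9 libraries, all on one scale. The ChIP libraries show tall bins near 8, 74, 107 and 115 kb, and the IgG libraries stay near 0.

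In bins of 500 bp, 337 of 360 held a read of some library. Bins higher than IgG numbered 24 for Stat5a at 8 h (of all bins of the genome with reads, 0.456%), 18 at 13 h (0.322%) and 19 after 2 rounds (0.268%). For Stat5b they numbered 5 (0.0895%), 27 (0.34%) and 32 (0.544%). On distinct starts these counts were 12 (0.0455%), 7 (0.0356%) and 12 (0.0617%) for Stat5a, and 3 (0.0121%), 16 (0.085%) and 25 (0.295%) for Stat5b. Most of these bins touched a merged region, and at most 4 of a library did not. The tallest bin, by the mean of both antibodies above IgG, moved with stage from one region to another. At 8 h it was chr15:9474001-9474500, with 17.89 RPM of Stat5a, 4.66 of Stat5b and 0.32 of IgG. At 13 h it was chr15:9408001-9408500, with 10.35, 17.15 and 1.33 RPM in that order. After 2 rounds it was chr15:9507001-9507500, with 32.81, 36.57 and 0.86 RPM. The next 4 bins lay in the regions at +73, +107 and +17 kb at 8 h, in those at +107, +74 and +8 kb at 13 h, and in those at +8, +74, +115 and +107 kb after 2 rounds.

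Each ChIP library was above IgG in several regions, which their choice from the peaks of the same libraries favours. Stat5a was called higher than IgG in 13 regions at 8 h (over all merged regions 11.2% were), 9 at 13 h (13.9%) and 14 after 2 rounds (13.9%). Stat5b was called higher in 5 (2.92%), 15 (17.5%) and 21 (46.5%). None of the 33 was called lower, where of all regions 0.0274%, 0.0503% and 0.0754% were for Stat5a and 0.114%, 0.0891% and 0.151% for Stat5b. On distinct starts the counts were 9 (5.12%), 6 (3.74%) and 11 (6.51%) for Stat5a and 3 (1.32%), 15 (9.06%) and 17 (32.1%) for Stat5b. The 5 regions present in all lists carried between 52.2% (Stat5a at 8 h) and 68.3% (Stat5b at 8 h) of the RPM above IgG in the 33 regions. Among them, +74 kb was the strongest region of Stat5a at 8 h, +8 kb that of Stat5b at 8 h and of both antibodies at 13 h, and +107 kb that of both after 2 rounds.

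The region at +8 kb (chr15:9406944-9409191) held 12.46, 18.89 and 31.00 RPM of Stat5a at 8 h, 13 h and 2 rounds. Stat5b there stood at 9.61 RPM (7.43 to 12.2), 31.32 (27.8 to 35.2) and 53.94 (48.9 to 59.4), and IgG at 1.60, 2.52 and 2.42. Every ChIP library was thus far above each IgG library, and by the mean of both antibodies above IgG it ranked 236, 36 and 86 of 43771 regions at the 3 stages. Stat5b was higher at 13 h than at 8 h, by 3.26 times (2.48 to 4.33), a call that distinct starts did not keep. After 2 rounds Stat5b stood at 5.61 times its 8 h level (4.32 to 7.39), on distinct starts at 4.20 times. For Stat5a the same ratio was 2.49 (1.76 to 3.60), which did not pass.

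At +107 kb (chr15:9506633-9508244) Stat5a stood at 17.57 RPM (13.2 to 22.9), 14.20 (11.8 to 17) and 51.01 (45.7 to 56.7). Stat5b stood at 5.24 RPM (3.67 to 7.26), 17.60 (15 to 20.6) and 65.30 (59.7 to 71.3), and IgG at 1.28, 1.33 and 3.11. The libraries of 2 rounds held the most reads of both antibodies by a wide margin, and the rank went from 200 to 138 and 32. Stat5a was higher after 2 rounds than at 13 h (3.59 times, 2.91 to 4.47) and than at 8 h (2.90 times, 2.18 to 3.93), and the first of these also passed on distinct starts. Stat5b was higher at each step, 3.36 times at 13 h (2.33 to 4.96), 3.71 times from there to 2 rounds (3.10 to 4.46) and 12.5 times in all (8.88 to 18.0). All 3 of these calls held on distinct starts. The starting level was low, and Stat5b at 8 h was not called higher than IgG at +107 kb.

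The neighbours +73 kb (chr15:9471783-9473627) and +74 kb (chr15:9473691-9475086) lie 63 bp apart and showed one order of levels. Stat5a at +73 kb stood at 23.32, 10.71 and 19.26 RPM, Stat5b at 7.57, 14.94 and 26.38 RPM, and IgG at 2.56, 2.66 and 2.42 RPM. Stat5a at +74 kb stood at 23.00, 12.39 and 22.57 RPM, Stat5b at 8.30, 21.69 and 35.92 RPM, and IgG at 1.76, 1.99 and 2.42 RPM. In both, Stat5a had its lowest level at 13 h and Stat5b its highest after 2 rounds. The Stat5a ratio of 13 h to 8 h, 0.459 (0.333 to 0.635) at +73 kb and 0.539 (0.395 to 0.739) at +74 kb, did not pass. Stat5b after 2 rounds was higher than at 8 h in both, by 3.48 times (2.56 to 4.82) and 4.33 times (3.24 to 5.86), also on distinct starts. At +73 kb the Stat5b level of 8 h was not called higher than IgG.

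The smallest region with a peak in all lists, +101 kb (chr15:9500519-9501226), held 5.75, 4.33 and 11.89 RPM of Stat5a, 3.35, 3.21 and 12.93 of Stat5b, and 0.16, 1.33 and 1.56 of IgG. Its levels at 8 h and 13 h lay close together for each antibody, and those of 2 rounds lay above both. IgG, however, was higher at 13 h than at 8 h. The mean of both antibodies above IgG was thus 4.39, 2.44 and 10.85 RPM by stage, with ranks 1136, 4707 and 1440. On all reads neither antibody was called higher than IgG there at 13 h, while Stat5a was on distinct starts. Stat5b was higher after 2 rounds than at 13 h by 4.03 times (2.64 to 6.32), also on distinct starts, and the Stat5a ratio, 2.74 (1.83 to 4.19), did not pass.

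**Figure D3:**
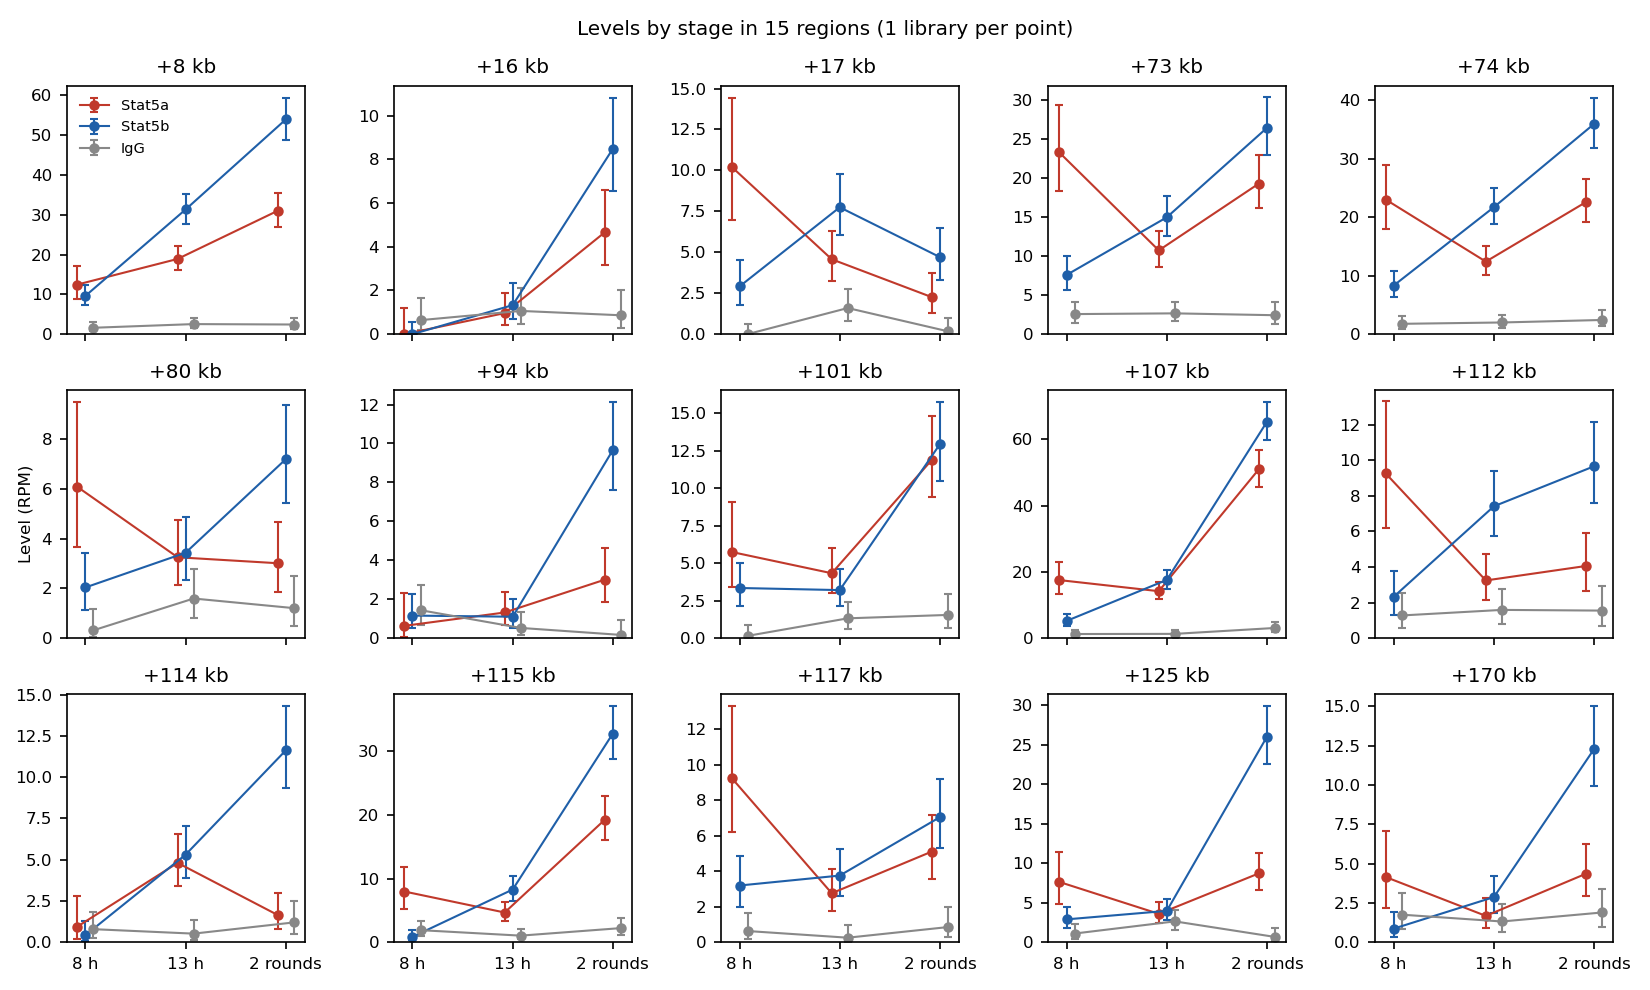
Levels (RPM, linear axis of its own in each panel) of Stat5a, Stat5b and IgG by stage in the 15 regions with the highest level in any ChIP library among those with a peak in at least 2 lists, where each point is 1 library and each bar its exact 95% Poisson interval. At +107 and +115 kb both antibodies are highest after 2 rounds, at +17 kb Stat5a is lowest after 2 rounds, and at +73 and +74 kb Stat5a is lowest at 13 h.

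At +115 and +114 kb both antibodies had a peak at 13 h and neither had one at 8 h. At +115 kb (chr15:9514737-9515750) Stat5a stood at 7.99, 4.69 and 19.26 RPM, Stat5b at 0.87, 8.30 and 32.78 RPM, and IgG at 1.92, 1.06 and 2.25 RPM. At 8 h Stat5b there was below the IgG library and Stat5a was 4.15 times above it (2.01 to 9.07). On distinct starts Stat5a stood at 5.36 RPM (11 starts) and IgG at 1.87 RPM (8 starts), which did not pass. Stat5b was higher at 13 h than at 8 h by 9.50 times (4.17 to 26.7) and after 2 rounds than at 13 h by 3.95 times (3.04 to 5.18), both also on distinct starts. Stat5a was higher after 2 rounds than at 13 h by 4.10 times (2.85 to 6.04). The neighbour +114 kb (chr15:9513992-9514553), 183 bp away, followed another order for Stat5a. Stat5a there stood at 0.96, 4.81 and 1.66 RPM, Stat5b at 0.44, 5.31 and 11.62 RPM, and IgG at 0.80, 0.53 and 1.21 RPM. At 13 h the antibodies lay side by side, and after 2 rounds Stat5b was 7.02 times Stat5a (3.74 to 14.6), or 4.75 times on distinct starts (2.32 to 10.9). Stat5a at +114 kb after 2 rounds stood at 0.344 times its 13 h level (0.159 to 0.683), which did not pass.

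A second close pair, +16 and +17 kb, lies 526 bp apart and went opposite ways for Stat5a. At +16 kb (chr15:9415399-9416218) no read of either antibody was found at 8 h. The exact intervals there reach 1.18 RPM for Stat5a and 0.537 RPM for Stat5b, and 3 counts correspond to 0.958 and 0.437 RPM. Stat5a then stood at 0.96 and 4.66 RPM, Stat5b at 1.33 and 8.49 RPM, and IgG over the 3 stages at 0.64, 1.06 and 0.86 RPM. With 3 counts put in for each 8 h library, Stat5b after 2 rounds was 19.4-fold higher and Stat5a 4.87-fold higher. These folds are not lower limits, because the exact intervals at 8 h reach above 3 counts. Both calls held on distinct starts, as did that of Stat5b over 13 h (6.39 times, 3.42 to 13.0). At +17 kb (chr15:9416745-9417596) Stat5a stood at 10.22, 4.57 and 2.26 RPM, Stat5b at 2.91, 7.75 and 4.70 RPM, and IgG at 0, 1.59 and 0.17 RPM. Stat5a after 2 rounds was lower there than at 8 h, 0.221 times (0.111 to 0.420), but not on distinct starts. The Stat5b ratio over the same stages was 1.61 (0.91 to 2.94).

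At +125 kb (chr15:9524624-9526097) the highest level was that of Stat5b after 2 rounds. Stat5a stood at 7.67, 3.61 and 8.73 RPM, Stat5b at 2.91, 3.98 and 25.99 RPM, and IgG at 1.12, 2.66 and 0.69 RPM. Stat5b after 2 rounds was higher than at 13 h by 6.52 times (4.56 to 9.58), on distinct starts by 6.44 times, and higher than Stat5a of that stage by 2.98 times (2.21 to 4.06). The last of these did not pass on distinct starts, and the median of that ratio over all regions was 2.43. At +94 kb (chr15:9493712-9494704) Stat5a stood at 0.64, 1.32 and 3.01 RPM, Stat5b at 1.16, 1.11 and 9.66 RPM, and IgG at 1.44, 0.53 and 0.17 RPM. Neither antibody had more reads than IgG there at 8 h, and Stat5b was higher after 2 rounds than at 13 h by 8.73 times (4.49 to 19.0). At +170 kb (chr15:9569091-9570129) Stat5a stood at 4.15, 1.68 and 4.36 RPM, Stat5b at 0.87, 2.88 and 12.28 RPM, and IgG at 1.76, 1.33 and 1.90 RPM. Stat5b there was 14.1 times its 8 h level after 2 rounds (6.22 to 39.3).

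Another 4 regions held modest levels of both antibodies. At +112 kb (chr15:9511762-9512665) Stat5a stood at 9.26, 3.25 and 4.06 RPM, Stat5b at 2.33, 7.41 and 9.66 RPM, and IgG at 1.28, 1.59 and 1.56 RPM. At +117 kb (chr15:9516744-9517646) Stat5a stood at 9.26, 2.77 and 5.12 RPM, Stat5b at 3.20, 3.76 and 7.05 RPM, and IgG at 0.64, 0.27 and 0.86 RPM. In both, Stat5a was highest at 8 h and Stat5b after 2 rounds, and the Stat5a ratios of 13 h to 8 h, 0.351 (0.200 to 0.614) and 0.299 (0.165 to 0.535), did not pass. At +80 kb (chr15:9479648-9480460) Stat5a stood at 6.07, 3.25 and 3.01 RPM, Stat5b at 2.04, 3.43 and 7.18 RPM, and IgG at 0.32, 1.59 and 1.21 RPM. At +78 kb (chr15:9477572-9478624) Stat5a stood at 5.75, 5.78 and 7.07 RPM, Stat5b at 3.06, 4.98 and 7.05 RPM, and IgG at 1.60, 1.06 and 2.25 RPM. Here the 3 Stat5a levels lay close together, with a Stat5b to Stat5a ratio of 0.997 after 2 rounds (0.662 to 1.51).

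The 5 remaining regions with a peak in at least 2 lists were weak. At +71 kb (chr15:9470876-9471409) Stat5a stood at 2.24, 2.53 and 4.06 RPM, Stat5b at 1.16, 5.53 and 2.61 RPM, and IgG at 0.32, 0 and 2.07 RPM. The Stat5b library of 13 h was highest there. At +145 kb (chr15:9544233-9545141) Stat5a stood at 0.64, 2.65 and 2.86 RPM, Stat5b at 0.44, 3.65 and 4.96 RPM, and IgG at 0.48, 0.40 and 1.73 RPM. At +165 kb (chr15:9564947-9565458) Stat5a stood at 0.96, 1.56 and 0.75 RPM, Stat5b at 1.02, 3.65 and 1.04 RPM, and IgG at 0.64, 0.13 and 0.35 RPM. That region had its highest level of each antibody at 13 h. At +14 kb (chr15:9413597-9414029) Stat5a stood at 0.64, 1.44 and 2.26 RPM, Stat5b at 0.44, 1.66 and 2.74 RPM, and IgG at 0.16, 0.40 and 0.17 RPM. At +0 kb Stat5a stood at 0.32, 0.96 and 0.30 RPM, Stat5b at 1.46, 1.55 and 3.27 RPM, and IgG at 0, 0.13 and 0.86 RPM. The 12 regions with a peak in 1 list were between 250 and 767 bp wide, and none held more than 6.53 RPM in any ChIP library, the value of Stat5b after 2 rounds at +99 kb.

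Across the 33 regions, the change from 8 h to 13 h went apart between the antibodies. No Stat5a ratio was called higher (0.286% of all regions were) and 2 were called lower (2.15%), at +122 and +153 kb, where 2 reads were left of 11 and 13, and neither held on distinct starts (0.555%). Of the Stat5b ratios, 8 were called higher (5.27%) and none lower (0.304%), of which 4 held on distinct starts (1.13%), at +107, +114, +115 and +120 kb. The median ratio of Stat5a was 0.67 over the 31 regions with reads in both libraries, against 0.869 over all such regions. That of Stat5b was 3.04 over 31 regions, against 1.90 over all. For IgG it was 1.13 against 0.829, and 1 IgG region was called higher (0.254%), +17 kb, from 0 to 12 reads, and none lower (0.461%).

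From 13 h to 2 rounds no region was called lower for either antibody. Stat5a was called higher in 5 (7.67%), namely +16, +107, +115, +126 and +147 kb, and lower in none (3.97%). Distinct starts kept +107, +115 and +147 kb (2.56%). Stat5b was called higher in 9 (25.1%), namely +16, +94, +99, +101, +107, +115, +125, +126 and +170 kb, and lower in none (0.637%). Distinct starts kept 8 of them (14.8%), without +170 kb. The median ratio was 1.82 for Stat5a, against 1.25 over all regions, and 1.90 for Stat5b, against 2.58. The share of Stat5b regions called higher, at 9 of 33, was near that of all regions, and their median was below that of all. In IgG the median was 1.17 against 1.30, and 1 region was called higher (0.644%), +71 kb, from 0 to 12 reads, and none lower (0.0914%).

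From 8 h to 2 rounds, a comparison that shares its libraries with the others, Stat5b was called higher in 17 regions (43.4%) and lower in none (0.215%). Distinct starts kept 15 of them (31%). Stat5a was called higher in 2 (3.73%), +16 and +107 kb, and lower in 2 (1.91%), +17 and +122 kb. Distinct starts left 1 higher (0.996%), +16 kb, and none lower (0.409%). The median ratio was 4.30 for Stat5b, against 4.82 over all regions, and 1.05 for Stat5a, against 1.10. The share of Stat5b regions called higher, at 17 of 33, was thus near that of all regions. IgG had a median of 1.37, against 1.08, and no region called higher (0.551%) or lower (0.146%).

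The Stat5b counts depend on how the libraries are scaled. When each pair of libraries was scaled by its own median ratio over all regions, which for Stat5b was 1.90 from 8 h to 13 h, 2.58 from 13 h to 2 rounds and 4.82 from 8 h to 2 rounds, most calls ended. Regions called higher then numbered 2 (0.35%), 1 (3.8%) and 2 (1.84%), and those called lower 0 (1.67%), 5 (5.51%) and 0 (4.55%). On that scale +114 kb (6.40 times, 2.06 to 32.1) and +115 kb (5.0 times, 2.19 to 14.1) were higher at 13 h than at 8 h. Between 8 h and 2 rounds +115 kb (7.78 times, 3.53 to 21.4) and +16 kb, with its 0 reads at 8 h, were higher. The ratio at +107 kb was then 2.58 (1.84 to 3.73), and those of +73, +74 and +101 kb fell below 1, at 0.723, 0.898 and 0.801.

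**Figure D4:**
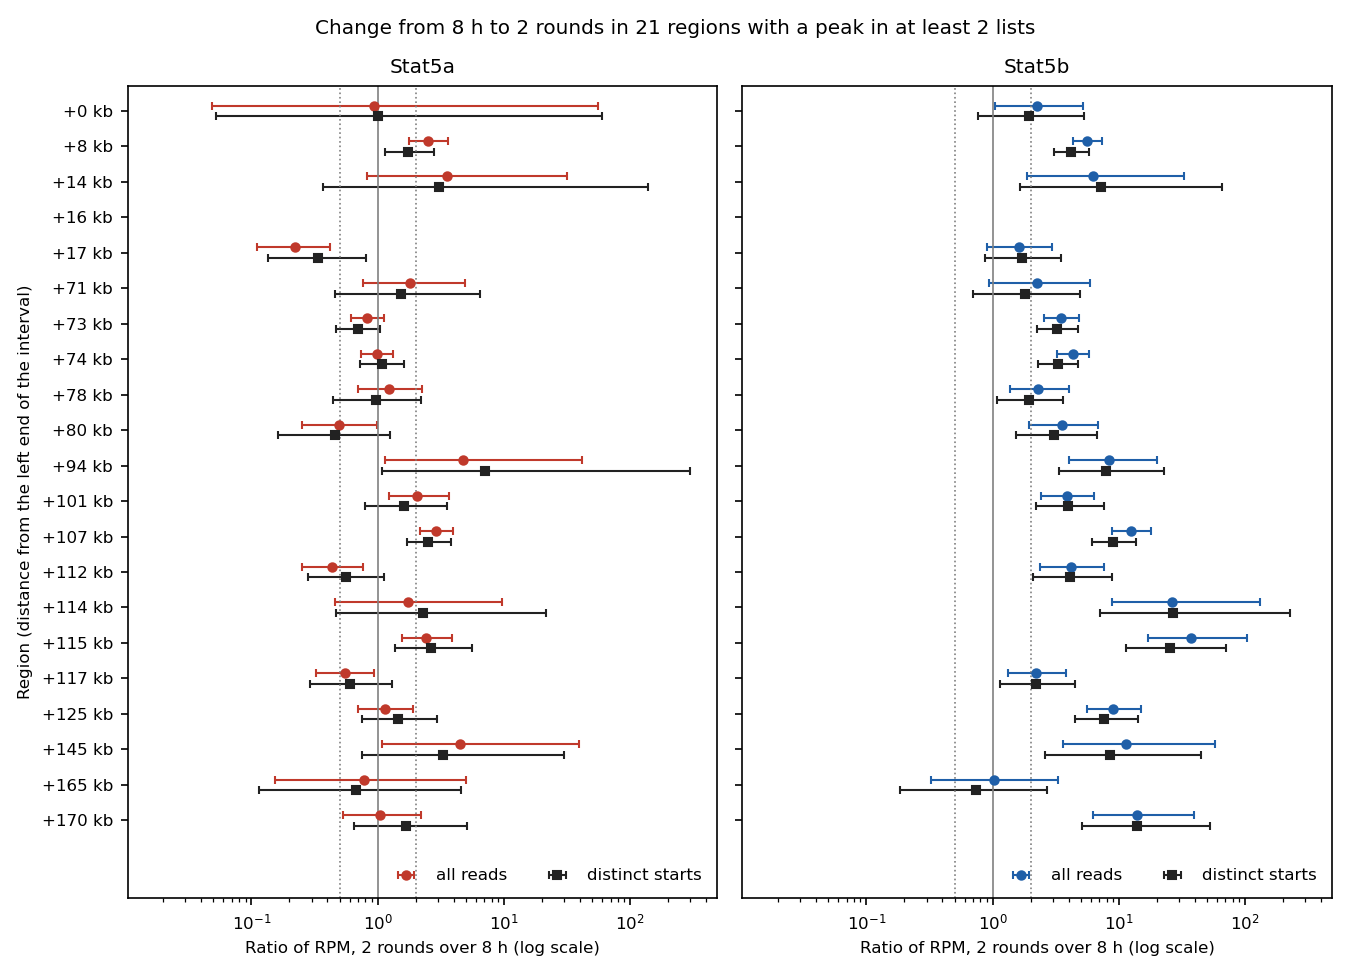
Ratio of the RPM after 2 rounds to that at 8 h (log axis) in the 21 regions with a peak in at least 2 lists, for Stat5a (left) and Stat5b (right), by all reads (circles) and distinct starts (squares), with exact 95% intervals, a line at 1 and dotted lines at 0.5 and 2. The region at +16 kb has no point because both 8 h libraries held 0 reads there. Most Stat5b points lie above 2, up to 37.5 at +115 kb, and the Stat5a points lie on both sides of 1.

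The antibodies were then set against each other at each stage. At 8 h Stat5b was called lower than Stat5a in 6 regions (3.8%), namely +73, +107, +112, +115, +122 and +153 kb, with ratios from 0.0414 to 0.325, and higher in none (0.048%). None of these calls held on distinct starts (0.877%). At 13 h 1 region was called lower (5.33%), +59 kb, with 0 reads of Stat5b against 16 of Stat5a, and none higher (2.08%). Distinct starts did not keep it (0.0251%). After 2 rounds 4 were called higher (17.2%), +0, +99, +114 and +125 kb, and none lower (0.487%). Of the 4, distinct starts kept +114 kb (7.03%). The median ratio of Stat5b to Stat5a was 0.363 at 8 h against 0.547 over all regions, 1.63 at 13 h against 1.24, and 1.59 after 2 rounds against 2.43. The turn from below 1 to above 1 was thus seen over all regions as well. Stat5a at 8 h was the shallowest library, so each of its reads weighs most in RPM.

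Summits were read in 50 bp steps where a library had at least 20 reads. They come from the same reads, in and next to regions drawn from the peaks. Their closeness between libraries is thus favoured by that choice and tests nothing. At +74 kb the summit lay at 9474366 in 5 of 6 ChIP libraries, and 100 bp to the right in Stat5b after 2 rounds. At +101 kb the summits of 5 libraries lay within 50 bp, and at +115 kb those of 5 libraries lay at 9515262 or 9515312. At +73 kb the summit lay at 9472758 or 9472808 in 5 libraries and at 9473208 in Stat5b at 8 h. At +8 kb the summit lay between 9408319 and 9408419 in 5 libraries, while that of Stat5b at 8 h, with 7 reads, lay at 9407519. At +107 kb summits fell either at 9507058 or between 9507408 and 9507558, in a region whose profile had a shoulder on the left. Minus-strand ends lay to the right of plus-strand ends by a median of between 72.0 and 133 bp in the 6 ChIP libraries, over 9 to 28 regions. This held in 9 of 11, 12 of 17 and 14 of 22 regions for Stat5a, by stage. For Stat5b it held in 7 of 9, 20 of 23 and 24 of 28. Single regions ranged from -385 to 729 bp. At +107 kb the offset was 72, -194 and -96 bp for Stat5a and -253.5, 4 and -13 bp for Stat5b. No start and strand in the interval held more than 12 reads in any library.

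**Figure D5:**
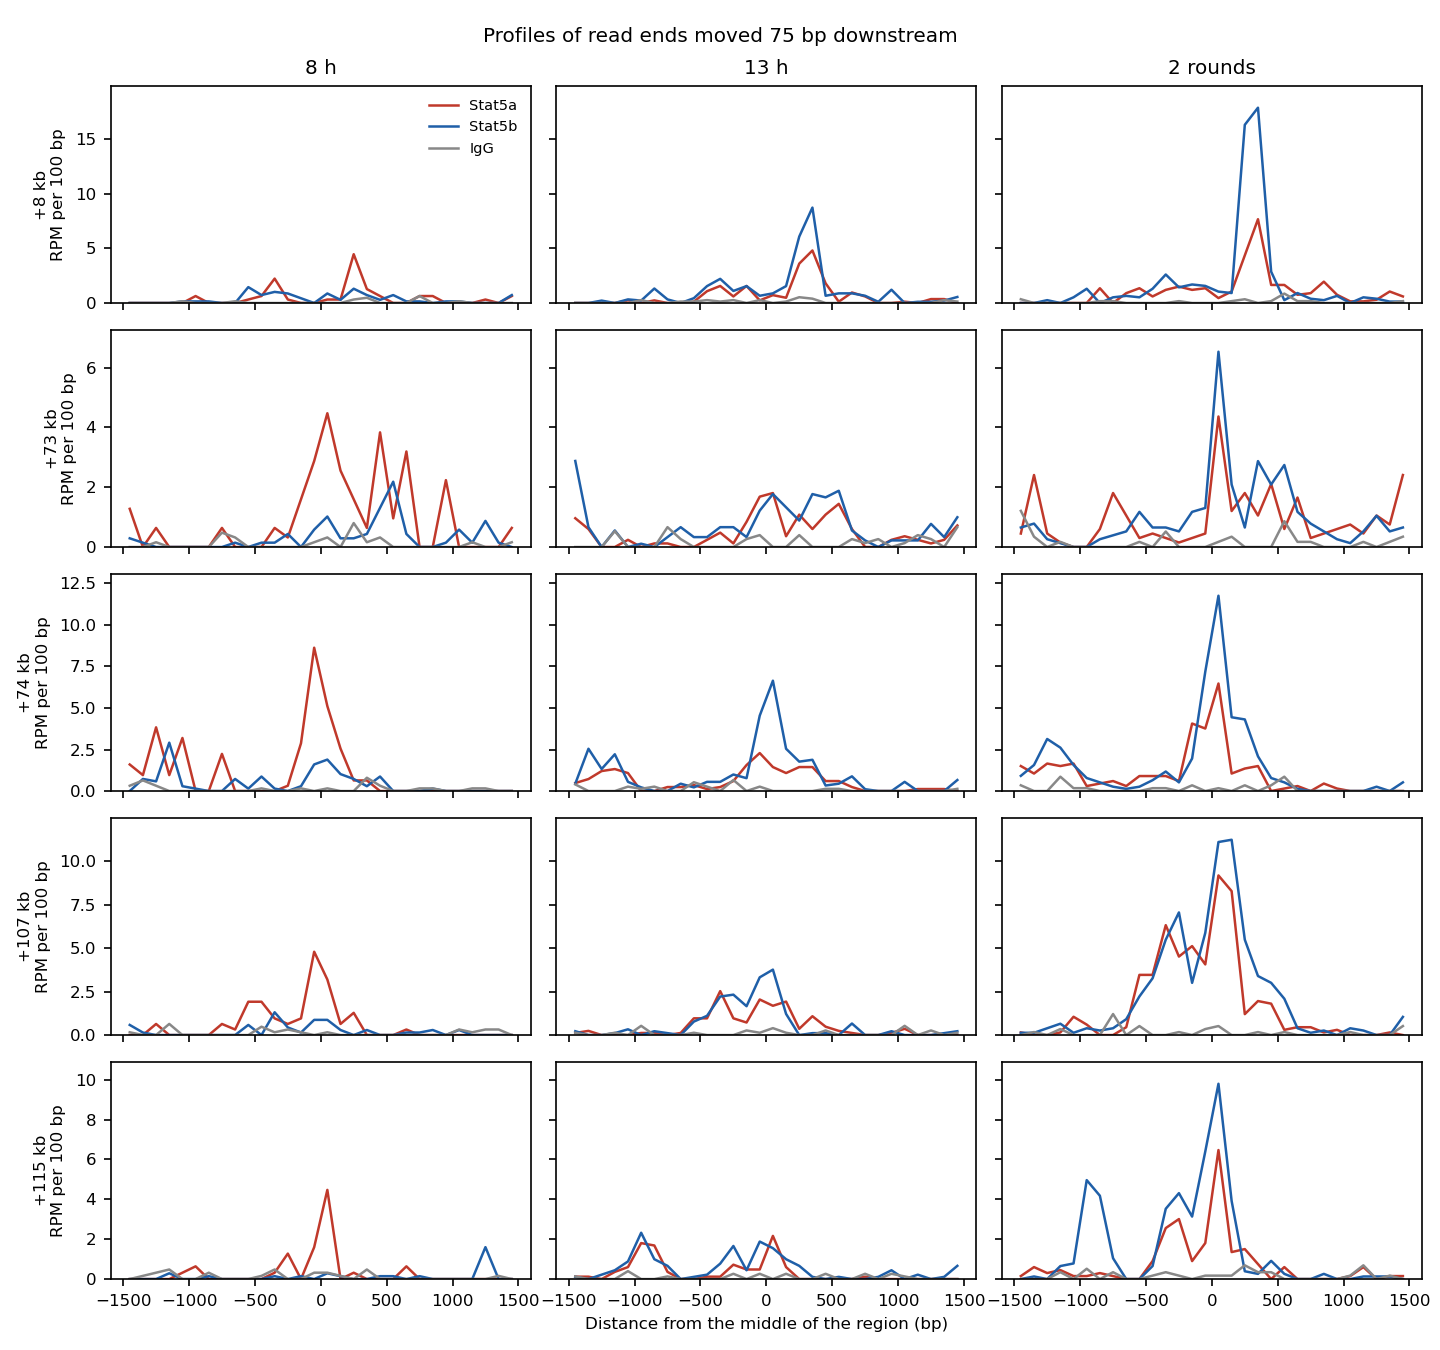
Reads (RPM per 100 bp, ends moved 75 bp downstream, one scale per row) within 1500 bp of the middle of 5 regions (rows) at the 3 stages (columns) for Stat5a, Stat5b and IgG. The Stat5a and Stat5b lines peak at the same place at +8, +74 and +115 kb after 2 rounds, and the IgG line stays near 0.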

How the data were processed

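The authors deposited, per library, the start and end in bp of each mapped read on mm8 with a strand, not normalized, and, per ChIP library, the start and end of each peak, with no height or score, per the file headers and values. The sources used here do not give the aligner, the peak caller, its threshold or any use of IgG. Per the labels, the 9 libraries came from 22 lanes. Besides reads of 25 bp, 4 libraries contained reads of 24 bp, whose starts were moved by 1 bp. This offset was clear in Stat5a at 13 h, where 14.3% of 25 bp starts recurred, against at most 0.650% in the other 3. Reads of 24 bp made up 38.0% (Stat5a) and 49.7% (IgG) of their libraries at 13 h. After 2 rounds the shares were 54.5% (Stat5a) and 77.3% (IgG). No Stat5b library and no 8 h library held any. Read length thus differed wherever Stat5b was set against Stat5a or IgG at the later stages. It also differed in the changes of Stat5a and IgG between stages.

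Peaks of the 6 lists were merged where they shared at least 1 bp, and a read was counted by its 5′ end. Ratios of RPM carry exact conditional (Clopper-Pearson) intervals at 95%, and a library with 0 reads enters a fold at 3 counts. Simulated data in which 200 regions changed were used to test the calling rule. They were drawn with Poisson error alone, so they could not show false calls from copied reads or from spread between cultures. All regions with a peak in at least 2 lists, the strongest region of each stage and the 5 tallest bins of each stage are named, and other regions where a call singles them out. The interval, its members and these rules were chosen with earlier results of these data known. A planned list of IL-7 signalling genes was not used, because gene positions in mm8 were not used here. Alternatives were distinct starts, scaling to reads outside regions, scaling to the median ratio, ends moved by 75 bp, pooled IgG, regions in at least 2 lists, intervals above or below 1, other bins and steps, and 25 bp reads alone. Tools were matplotlib 3.10.9, scipy 1.17.1, pandas 2.3.3, Python 3.11.15 and numpy 2.4.6.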

Additional observations from a re-analysis of the deposited data

How the results depend on the processing

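With 1 library per group, depth limits every comparison. No paired analysis was possible because each group has 1 library and the labels give no replicate numbers. Of 108 region comparisons called in the regions with a peak in at least 2 lists, all 108 stayed called with scaling by reads outside regions, 103 with ends moved by 75 bp, 80 on distinct starts, 84 of 107 on 25 bp reads alone (chosen after seeing the data) and 29 with scaling by the median ratio. With pooled IgG, 60 of 66 comparisons with IgG stayed called. The median ratio turned 5 of them: Stat5b over IgG after 2 rounds at +80 kb to 0.982, and Stat5b after 2 rounds over 8 h at +73 kb to 0.723, +74 kb to 0.898, +101 kb to 0.801 and +112 kb to 0.860. It does so by dividing by the change of most regions.

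Counts of regions that moved by more than 1.5 times follow. Shares over all regions or bins were determined only for the settings where they are given above. The other counts show how the calls of the interval depend on the setting. They do not show whether the interval differs from the genome under it. With the median ratio, regions above IgG went to 4, 1 and 3 for Stat5a (8 h, 13 h, 2 rounds) and to 3, 4 and 3 for Stat5b. Stat5a after 2 rounds over 8 h went to 1 higher. Stat5b went to 2 higher for 13 h over 8 h, to 1 higher and 5 lower for 2 rounds over 13 h, and to 2 higher for 2 rounds over 8 h. Stat5b against Stat5a went to 1 lower at 8 h, and to 0 higher and 1 lower after 2 rounds.

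On distinct starts, Stat5b over IgG at 8 h went from 5 to 3. Stat5a went to 0 lower for 13 h over 8 h, to 3 higher for 2 rounds over 13 h, and to 1 higher and 0 lower for 2 rounds over 8 h. Stat5b for 13 h over 8 h went to 4 higher, and both single IgG calls to 0. Stat5b against Stat5a went to 0 lower at 8 h, 0 lower at 13 h and 1 higher after 2 rounds. Bins above IgG went to 12, 7 and 12 for Stat5a, and to 3 and 16 for Stat5b at 8 h and 13 h. The summit spread went from 900 to 750 bp at +8 kb and from 100 to 0 bp at +74 kb.

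With intervals above or below 1, regions above IgG went to 10 for Stat5b at 8 h and 15 for Stat5a at 13 h. Stat5a went to 3 higher and 10 lower for 13 h over 8 h, 16 and 3 for 2 rounds over 13 h, and 10 and 6 for 2 rounds over 8 h. Stat5b went to 18 higher for 13 h over 8 h, 19 higher and 4 lower for 2 rounds over 13 h, and 26 higher for 2 rounds over 8 h. IgG went to 3 higher, then 4 higher and 2 lower, then 4 higher and 1 lower. Stat5b against Stat5a went to 14 lower at 8 h, 12 higher at 13 h and 18 higher after 2 rounds. Bins went to 44, 45 and 58 for Stat5a and 19, 48 and 65 for Stat5b.

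On 25 bp reads alone, regions above IgG after 2 rounds went to 8 for Stat5a and 13 for Stat5b. Stat5a went to 1 higher for 2 rounds over 13 h and 0 lower for 2 rounds over 8 h. The single IgG calls went to 0, and IgG for 2 rounds over 8 h to 1 higher. Among regions in at least 2 lists, Stat5a had 0 lower for 13 h over 8 h, 3 higher for 2 rounds over 13 h and 1 lower for 2 rounds over 8 h, and Stat5b was lower than Stat5a at 13 h in 0. With ends moved by 75 bp, IgG for 2 rounds over 13 h went to 0, and Stat5b below Stat5a after 2 rounds to 1. Pooled IgG gave 43 bins for Stat5a and 55 for Stat5b after 2 rounds. Bins of 1000 bp gave 11 for Stat5a at 13 h and 21 for Stat5b after 2 rounds. Scaling by reads outside regions moved Stat5b over IgG after 2 rounds, outside regions, from 1.21 to 1.44.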
